A study of Mus musculus with 6 samples.

Results

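Cytosolic ribosomal protein genes encode the proteins of the large (Rpl) and small (Rps) subunits of the ribosome that translates nuclear messages. They were chosen by symbol: protein-coding genes named Rpl or Rps followed by a digit, with Rplp0, Rplp1, Rplp2 and Rpsa, and without the Rps6k kinases, Rps19bp1 and symbols ending in -ps. The rule took 85 of 36047 genes, 52 of the large and 33 of the small subunit, and used no measured value. The RNA was from MLE-12, an epithelial line of mouse lung made with SV40 large T antigen, which was driven in the founder mouse by a surfactant protein C promoter. Each sample is labelled as this line, although the extraction text of the labels speaks of lung tissue. All 6 libraries were of wild-type genotype and were made from polyadenylated RNA. The 3 CSE libraries came from cells given a 5% solution of cigarette smoke extract of optical density 2.0, added at 30% cell density and left for 24 h. The 3 PBS libraries came from cells given phosphate-buffered saline. All cells are 1 line. No label says that replicates were grown as separate cultures, so the p-values rest on a spread that could be technical only.

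Ribosomal protein messages are among the most abundant in growing cells, and the subunits need their proteins in equal number. Most of these messages begin with a run of pyrimidines (C or T in DNA), the 5′ terminal oligopyrimidine tract, through which the kinase complex mTORC1 and the RNA-binding protein Larp1 control their translation. The genes have spawned many processed pseudogenes, which are copies of the spliced message put back into the genome, and short reads cannot always be placed between a gene and its copies.

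The start sites of 6 members are shown because they include starts with and without such a run and both genes whose change passed the test. Each sequence is 30 bases of the RefSeq GRCm38.p6 promoter table, on the gene's strand, with 15 bases on each side of the annotated start. Capitals mark the unbroken run of C and T that holds the start, where there is one.
Rpl38, chr11:114668565-114668594, plus strand: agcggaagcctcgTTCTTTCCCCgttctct
Rps6, chr4:86857353-86857382, minus strand: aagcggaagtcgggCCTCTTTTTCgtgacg
Rps27, chr3:90213634-90213663, minus strand: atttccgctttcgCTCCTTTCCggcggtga
Rpl22, chr4:152325711-152325740, plus strand: ttcgccctgggaaaagcaatagctggccga
Rpl22l1, chr3:28805493-28805522, plus strand: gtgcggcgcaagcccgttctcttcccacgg
Rpl5, chr5:107900513-107900542, plus strand: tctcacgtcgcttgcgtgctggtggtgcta
Rpl38, Rps6 and Rps27 have runs of 10, 10 and 9 bases across the start, and Rpl22, Rpl22l1 and Rpl5 have none there. Between 25 bases before and 50 after the start, the longest runs were 4 bases in Rpl22, 10 in Rpl22l1 and 9 in Rpl5. The table held 77 entries for 65 of the 85 members. A run of at least 5 C or T holding the start stood in 27.3% of the members' entries and in 10.1% of all 32851 entries. A run of at least 8 between 25 bases before and 50 after the start stood in 67.5% of the members' entries and in 27.2% of all. The motif CCGGAAG, on either strand of the 300-base promoter, stood in 35.1% of the members' entries and in 8.86% of all, whereas TATAAA stood in 9.09% and 13.6%. An annotated start can lie some bases from the one used in these cells: the RefSeq and GENCODE starts of Rpl22l1 were 72 bases apart and those of Rpl5 26.

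Library totals lay between 12093009 and 24050167 estimated counts. Krt19 and Krt8 carried most of the summed epithelial markers, which were 1162 to 1280 TPM (abundance per transcript length, scaled to a fixed sum) in PBS and 604 to 690 TPM in CSE. The other epithelial markers were low in all libraries: Cdh1 at 2.54 to 6.68 TPM, Epcam at 1.42 to 2.63 and Krt18 at 0.0508 to 0.550. Of 9 markers of alveolar type 2 cells, Nkx2-1 stood at 98.7 to 129.9 TPM, Sftpc at 0.900 to 3.67 TPM, and Sftpa1 at 0 in all libraries. Summed markers of leukocytes were 3.14 to 6.38 TPM in PBS and 2.95 to 5.46 TPM in CSE, with Adgre1 at 0. Those of endothelium were 1.69 to 2.18 TPM and 0.746 to 1.30 TPM, with Cdh5 at 0, and those of fibroblasts 17.5 to 18.3 TPM and 12.9 to 14.2 TPM. Col1a1 carried most of the fibroblast sum, at 14.3 to 15.2 TPM in PBS and 8.45 to 9.59 TPM in CSE. Pdgfra went the other way, at 2.50 to 2.81 TPM in PBS and 3.98 to 5.11 TPM in CSE. The part of these marker levels in the results below was not tested.

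All 85 genes are in the files and 82 passed the filter on low counts, 50 of the large and 32 of the small subunit. Rpl10l and Rpl39l, retrogene copies of Rpl10 and Rpl39 known from testis, had 0 counts in every library, where 3 counts would be 0.126 to 0.250 CPM (counts scaled to a fixed library total). Rps27rt, a retrogene of Rps27, was listed at 0 CPM in 4 libraries and reached 7.11 CPM in CSE replicate 3. By TPM, a level per transcript length averaged here over the 6 libraries, the lowest tested members were Rpl3l, the muscle paralog of Rpl3, at 1.87 and Rps2 at 22.1, and Rplp0 stood at 4956. Rplp0 is the stalk protein that anchors the acidic proteins Rplp1 and Rplp2, and Rpl41, the smallest protein of the ribosome, stood at 4647 TPM. The Rps2 level counts only what was assigned to Rps2 itself, as described further on.

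The family took 3.72%, 2.93% and 2.91% of counts in PBS replicates 1 to 3, and 3.36%, 3.89% and 4.60% in CSE replicates 1 to 3. The means were 3.18% ± 0.46 (SD, n = 3) and 3.95% ± 0.62 (SD, n = 3). The groups overlapped, because PBS replicate 1 lay above CSE replicate 1. By TPM the shares were 10.7%, 8.81% and 8.91% in PBS and lay between 9.88% and 12.6% in CSE, with means of 9.49% ± 1.09 (SD, n = 3) and 11.1% ± 1.35 (SD, n = 3). In bulk RNA a larger share and less RNA from other genes cannot be told apart.

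Relative to the mean of the PBS libraries, the median log2 CPM of the 82 tested members was 0.33, −0.23 and −0.11 for PBS replicates 1 to 3 and 0.09, 0.32 and 0.73 for CSE replicates 1 to 3. The same median over all 13451 tested genes lay between −0.002 and 0.02 in every library. PBS replicate 1 stood with CSE replicate 2, and CSE replicate 3 stood above all others. CSE replicate 3 had the highest CPM in 78 of the 82 members. PBS replicate 2 had the lowest in 56 and PBS replicate 3 in 22. CSE replicate 1 exceeded PBS replicate 1 in 3 of 82 members, CSE replicate 2 in 39 and CSE replicate 3 in 79. Against PBS replicate 2 the same 3 libraries were higher in 75, 80 and 81 members, and against PBS replicate 3 in 68, 77 and 81. Over all tested genes the share higher in the CSE library lay between 49.4% and 54.0% in every such pair. The members moved together from library to library in both subunits: the medians were 0.31, −0.18, −0.11, 0.08, 0.31 and 0.68 for the large subunit and 0.38, −0.28, −0.09, 0.09, 0.34 and 0.74 for the small, in the order PBS 1 to 3 and CSE 1 to 3.

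**Figure D1:**
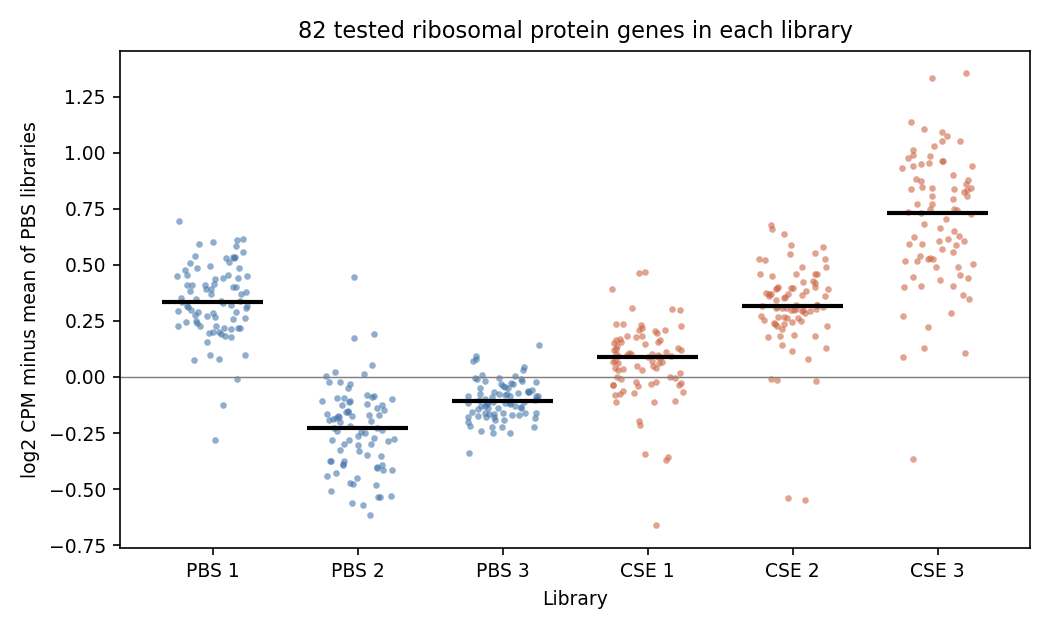
Each point is 1 of the 82 tested ribosomal protein genes in 1 library, as log2 CPM minus the gene's mean over the 3 PBS libraries, and black bars are medians. PBS replicate 1 has a median of 0.33, close to the 0.32 of CSE replicate 2, and CSE replicate 3 has the highest at 0.73.

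In edgeR's quasi-likelihood test, the fitted log2 fold change from PBS to CSE was positive for 81 of the 82 tested members, beside 50.9% of all tested genes. On the log2(TPM + 1) scale in limma 76 of 83 members were positive. The edgeR median was 0.36, beside 0.006 over all tested genes, with a range from −0.43 to 0.81. At an unadjusted p under 0.05 stood 39 of the 82 (47.6%), beside 26.0% of all tested genes. After Benjamini-Hochberg adjustment over all 13451 genes, 1 member was higher in CSE, Rpl22l1, and 1 was lower, Rpl5. The background was 4.32% of all tested genes called higher and 7.12% called lower, so neither count was above it. Every CSE library lay above every PBS library in 2 members, Rpl22l1 and Rpl4, beside 15.1% of all tested genes. Rpl5 was the 1 member with every CSE library below every PBS library, beside 16.2% of all tested genes.

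These counts depended on PBS replicate 1 and on the filter. Without PBS replicate 1 edgeR called 49 of 83 members higher (background 6.99%), with a median log2 fold change of 0.56, and without CSE replicate 3 it called 1 of 82 (background 2.04%), with a median of 0.19. Without CSE replicate 1 it called 8 of 83 (background 2.7%). With no filter on low counts it called 69 of 83 (background 4.61%), and DESeq2 called 8 of 82 (background 4.68%): Rpl3, Rpl11, Rpl14, Rpl18, Rpl22l1, Rps3a1, Rps4x and Rps9.

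**Figure D2:**
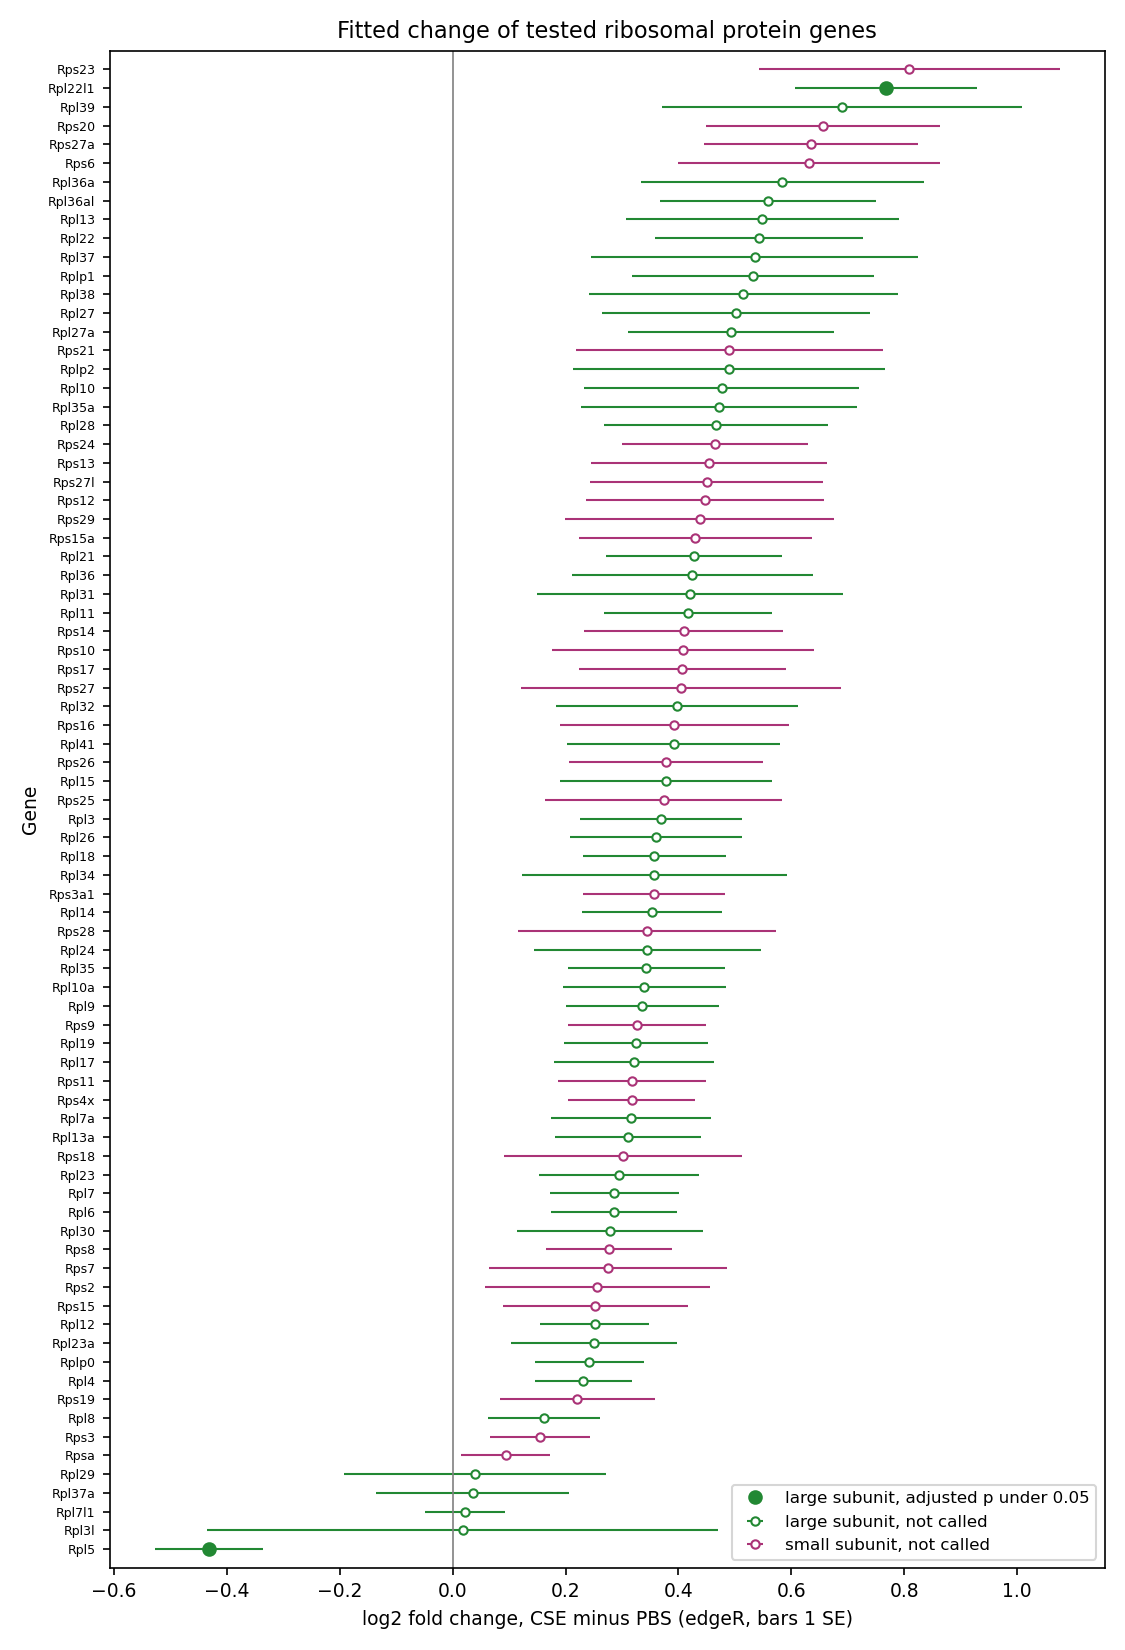
Fitted log2 fold change (CSE minus PBS, edgeR) of 80 of the 82 tested genes, ordered, with bars of 1 SE and colours for the subunits. Filled points passed an adjusted p of 0.05: Rpl22l1 at 0.77 and Rpl5 at −0.43.

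Among large-subunit genes, Rpl22l1 rose. It is the paralog of Rpl22, an RNA-binding protein of the large subunit that is known to restrain Rpl22l1 through its RNA. Rpl22l1 lies on the plus strand at chr3:28805436-28807424 (GRCm38), and its start window is printed above. It stood at 55.6, 39.7 and 42.5 CPM in PBS and 62.9, 72.7 and 97.6 CPM in CSE. All 3 CSE libraries were above all 3 PBS libraries, and the fitted log2 fold change was 0.77 ± 0.16 (SE), with an adjusted p of 0.0108 by edgeR. Without PBS replicate 3 the adjusted p was 0.0640. Rpl22 itself stood at 213.5, 143.4 and 138.5 CPM in PBS and 190.3, 227.3 and 302.6 CPM in CSE, and the groups overlapped (log2 fold change 0.54 ± 0.18, edgeR adjusted p = 0.0883). By TPM, Rpl22l1 stood at 25.6%, 28.2% and 30.6% of the level of Rpl22 in PBS and at 32.7%, 31.4% and 29.7% in CSE.

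The transcripts assigned to Rpl22l1 changed in make-up between libraries of both groups. Protein-coding transcripts held 25.6%, 8.94% and 14.6% of its TPM in PBS, and 28.8%, 23.8% and 55.0% in CSE. Most of the rest lay in transcript Rpl22l1-209, annotated as a processed transcript without a coding frame, at 130 to 157 TPM in PBS and 119 to 210 TPM in CSE. The main coding transcript, Rpl22l1-201, stood at 42.0, 6.91 and 24.5 TPM in PBS and at 53.8, 59.0 and 161 TPM in CSE. All 3 CSE libraries were above the PBS libraries in this transcript, and CSE replicate 3 stood far above the rest. In coding transcripts alone the log2 fold change of Rpl22l1 was 1.92 and its adjusted p 0.0542 by edgeR, so the call was lost while the value was larger.

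**Figure D3:**
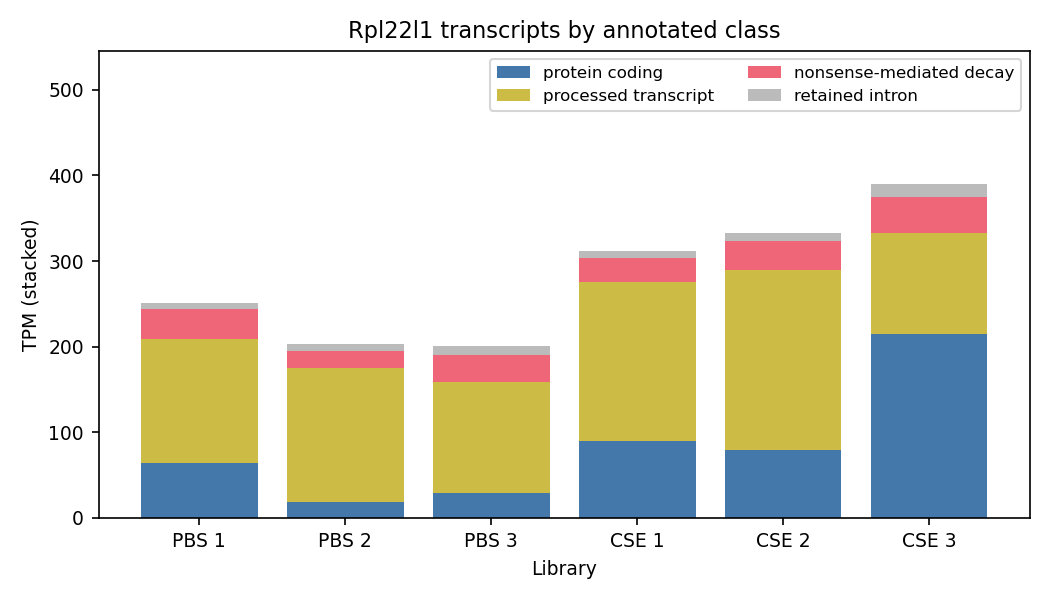
Stacked TPM of the transcripts of Rpl22l1 in each library, coloured by their annotated class. The protein-coding part makes up 8.94% to 25.6% of the bar in PBS and 23.8% to 55.0% in CSE, where CSE replicate 3 is the highest.

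Rpl4, a core large-subunit protein whose extension lines the exit tunnel, stood at 894, 843 and 772 CPM in PBS and 928, 943 and 1074 CPM in CSE. The groups did not overlap, but the log2 fold change of 0.23 ± 0.087 did not pass the test (edgeR adjusted p = 0.116). Rplp0 stood at 2767, 2297 and 2312 CPM in PBS and 2664, 2943 and 3120 CPM in CSE, where PBS replicate 1 exceeded CSE replicate 1 (log2 fold change 0.24 ± 0.097, edgeR adjusted p = 0.142). Its partners Rplp1 and Rplp2 had log2 fold changes of 0.53 ± 0.21 and 0.49 ± 0.28, neither past the test. Rpl39, a short protein of the exit tunnel, stood at 180, 72.6 and 105 CPM in PBS and 128, 166 and 280 CPM in CSE. PBS replicate 1 lay above CSE replicates 1 and 2, and the log2 fold change of 0.69 ± 0.32 did not pass (edgeR adjusted p = 0.203). Rpl11, which with Rpl5 and 5S RNA forms the particle that can bind the p53 regulator Mdm2, had a log2 fold change of 0.42 ± 0.15 (edgeR adjusted p = 0.103). Rpl13, Rpl36a and its retrogene paralog Rpl36al had log2 fold changes of 0.55 ± 0.24, 0.58 ± 0.25 and 0.56 ± 0.19, none past the test.

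Other large-subunit genes of known role had positive fitted values. Rpl3 and Rpl10, which lie near the peptidyl transferase centre, had log2 fold changes of 0.37 ± 0.14 and 0.48 ± 0.24. At their copies, described further on, stood 70.1% and 70.8% of the counts assigned to gene and copies. Rpl13a, also known as part of an interferon-gamma-activated translational silencer, had 0.31 ± 0.13. Rpl23 and Rpl26, which like Rpl11 can bind Mdm2 or the p53 message, had 0.30 ± 0.14 and 0.36 ± 0.15. Rpl38, linked to the translation of Hox messages, had 0.52 ± 0.27, Rpl10a 0.34 ± 0.14 and Rpl41 0.39 ± 0.19. None of these passed edgeR's test (DESeq2 called Rpl3 higher), and all 8 had PBS replicate 1 above CSE replicate 1.

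Among small-subunit genes, none of 32 passed edgeR's test in either direction, and all 32 had positive fitted values. At an unadjusted p under 0.05 stood 12 of the 32 (37.5%), beside 26.0% of all tested genes. DESeq2 called 3 higher (background 4.68%), Rps3a1, Rps4x and Rps9. Rps23, a protein of the decoding centre, had the highest fitted value of the family. It stood at 175, 87.7 and 98.8 CPM in PBS and 159, 179 and 294 CPM in CSE. PBS replicate 1 lay between CSE replicates 1 and 2, and the log2 fold change was 0.81 ± 0.27 (edgeR adjusted p = 0.0795). Rps27a, made as a fusion with ubiquitin, stood at 252, 167 and 174 CPM in PBS and 239, 284 and 397 CPM in CSE (log2 fold change 0.64 ± 0.19, edgeR adjusted p = 0.0553). Rps6, the phosphorylated target of S6 kinase, stood at 429, 214 and 240 CPM in PBS and 367, 442 and 555 CPM in CSE (log2 fold change 0.63 ± 0.23, edgeR adjusted p = 0.111). In all 3 genes only PBS replicate 1 overlapped the CSE range.

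Rps20 had a log2 fold change of 0.66 ± 0.21 (edgeR adjusted p = 0.0691). Rps14 and Rps19, known from anaemias of ribosome deficiency, had 0.41 ± 0.18 and 0.22 ± 0.14. Rps3, a protein of the message entry site also linked to DNA repair, had 0.15 ± 0.089, and Rpsa, also known as the laminin receptor, 0.09 ± 0.079. Rps4x had 0.32 ± 0.11, and the Rps27 paralog Rps27l, a p53 target, 0.45 ± 0.21. None of these passed edgeR's test.

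At the low end, Rpl37a had a log2 fold change of 0.04 ± 0.17, Rpl7l1 0.02 ± 0.071 and Rpl3l 0.02 ± 0.45. These 3 and Rpsa changed sign on the TPM scale.

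**Figure D4:**
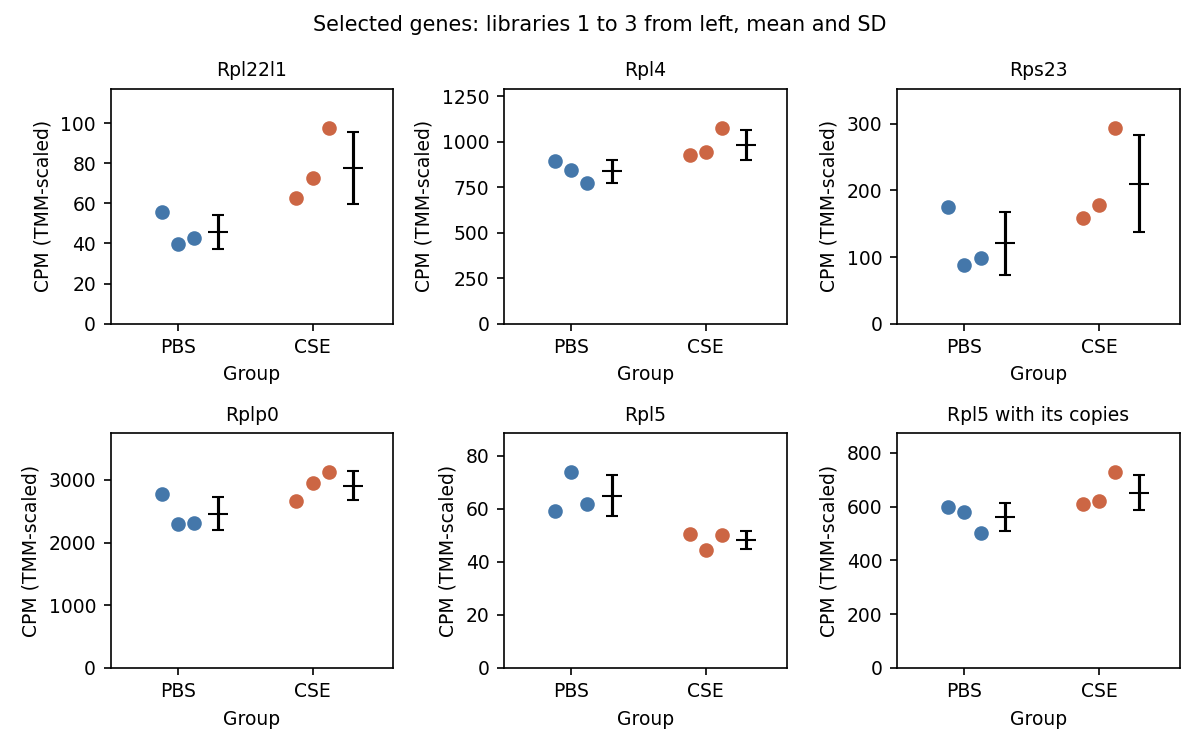
TMM-scaled CPM of 5 genes in PBS and CSE (points: replicates 1 to 3 from left; bars: mean and SD, n = 3), with axes from 0; the last panel adds the copies of Rpl5 to it. Rpl22l1 and Rpl4 do not overlap between groups, and Rpl5 alone is lower in CSE (59.3, 73.7 and 61.8 against 50.4, 44.4 and 50.1) while with copies it is not.

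Rpl5, which binds 5S RNA, lies on the plus strand at chr5:107900502-107909005. It stood at 59.3, 73.7 and 61.8 CPM in PBS and 50.4, 44.4 and 50.1 CPM in CSE, without overlap. The log2 fold change was −0.43 ± 0.096 (SE), with an adjusted p of 0.0147 by edgeR. The most abundant Rpl5 transcript shared 94.8% of its 31-base words with other genes, and the transcribed processed pseudogene Gm15500 held 99.9% of its own words in Rpl5 transcripts. Of the counts assigned to Rpl5 and its copies, 90.7% stood at the copies. With their counts added, Rpl5 stood at 599, 581 and 501 CPM in PBS and 609, 620 and 728 CPM in CSE. The log2 fold change then turned to 0.22 ± 0.096 and did not pass the test (edgeR adjusted p = 0.177). Protein-coding transcripts held 66.5%, 69.7% and 71.8% of the TPM assigned to Rpl5 in PBS and 52.2%, 58.1% and 62.6% in CSE; the remainder was annotated as retained introns. The fall of Rpl5 describes only the counts that kallisto placed at the gene itself.

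Sharing of this kind was common in the family. At least 50% of the 31-base words of the most abundant transcript stood in other genes for 65 of the 85 members, and under 10% for 4. Copies were taken as genes outside the family with at least 50% of their words in transcripts of a member. There were 310 of these, 290 of them processed pseudogenes, and 71 members had one. In 13 members over 50% of the counts stood at copies. Rps2 was the extreme: 99.5% of its pooled counts stood at copies, chiefly Rps2-ps10. Alone it stood at 4.56 to 8.09 CPM, and with copies at 1275, 1001 and 1008 CPM in PBS and 1240, 1384 and 1461 CPM in CSE. The share was 92.7% for Rps18, 90.0% for Rpl34, 84.0% for Rpl12 and 79.6% for Rps12, and under 1% for 49 members.

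With copies added, all 82 tested members had positive fitted values and the median was 0.34. Rpl22l1 was again called higher and no member lower, beside 592 and 972 of all 13392 genes. In that fit 43 members had an unadjusted p under 0.05, and the share of all genes was not taken. Without copies 39 members had, beside 26.0% of all tested genes. DESeq2 on the counts without copies called Rpl5 lower, beside 952 of all 13451 tested genes. The log2 fold change of Rps23 was then 0.58 ± 0.19 (edgeR adjusted p = 0.0725) and that of Rps6 0.38 ± 0.13 (edgeR adjusted p = 0.0781). Rpl3 was then at 0.23 ± 0.091, Rpl10 at 0.26 ± 0.10 and Rpl13 at 0.34 ± 0.14, each smaller than without copies. The family with copies took 4.54%, 3.68% and 3.64% of counts in PBS and 4.15%, 4.80% and 5.55% in CSE, the same order of libraries as without copies.

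Transcript length moved with these values. The median log2 fold change was 0.44 for the 21 members whose most abundant transcript was under 500 bases, 0.36 for the 39 of 500 to under 800 bases and 0.30 for the 22 of 800 bases or more. That transcript was not always a coding one. For Rps2 it was a retained intron of 389 bases, and coding transcript Rps2-201 has 1094. For Rpl22l1 it was Rpl22l1-209, of 473 bases, and coding transcript Rpl22l1-201 has 552. Over all tested genes the medians were 0.09 for the 359 under 500 bases and −0.001 for those of 800 or more. Across the 82 members, Spearman's rho of length was −0.40 with the CSE minus PBS value and −0.61 with the difference between PBS replicates 1 and 2, given as a description since members share the libraries. Shorter members were those that differed most within PBS as well. In order PBS 1 to 3 and CSE 1 to 3, the members under 500 bases had medians of 0.41, −0.38, −0.08, 0.00, 0.40 and 0.90, and those of 800 bases or more 0.22, −0.10, −0.12, 0.11, 0.30 and 0.47. In the longer members PBS replicate 1 also lay above CSE replicate 1. With a GC and length trend removed from each library, 5 of 82 members were called higher (background 6.22%), Rpl22l1, Rps27a, Rps20, Rps23 and Rpl18, and the median was 0.30. The part of length in the family's values was not tested.

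**Figure D5:**
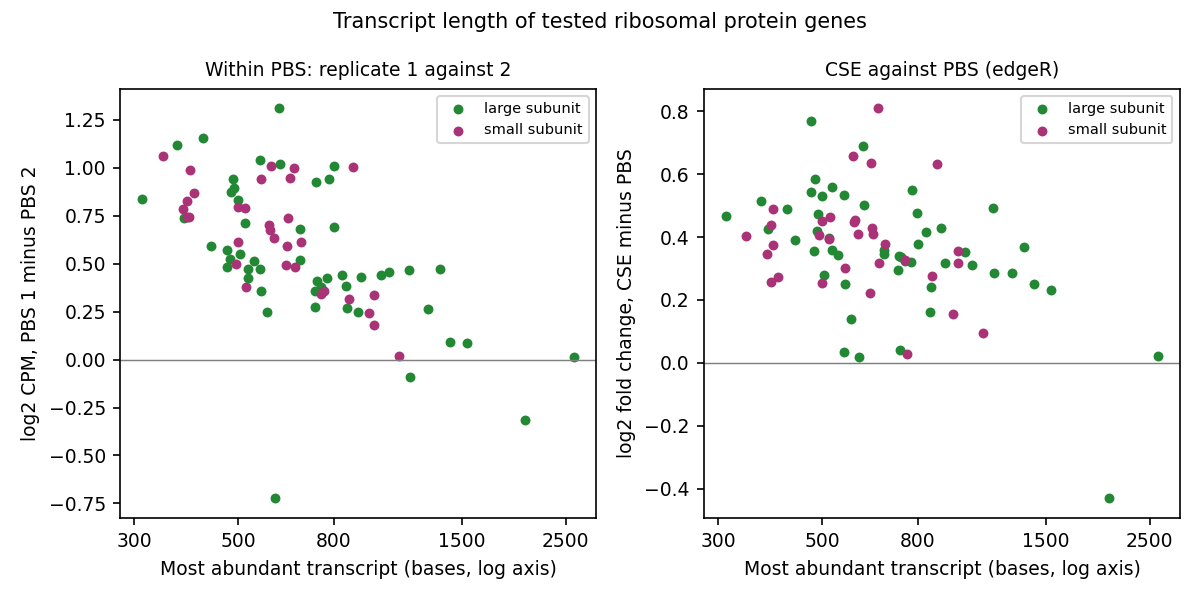
Length of the most abundant transcript (log axis) against log2 CPM of PBS replicate 1 minus PBS replicate 2 (left) and against the fitted log2 fold change, CSE minus PBS (right), for the 82 tested genes. Shorter transcripts have higher values in both panels (Spearman −0.61 and −0.40).

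Over the whole family, protein-coding transcripts held 86.5%, 84.5% and 85.5% of TPM in PBS and 86.5%, 86.2% and 87.0% in CSE. Transcripts annotated for nonsense-mediated decay held 5.69% ± 0.76 (SD, n = 3) in PBS and 4.60% ± 0.58 (SD, n = 3) in CSE, and PBS replicate 1 and CSE replicates 1 and 2 stood at the same 4.93%. Retained introns held 4.74% ± 0.032 and 4.96% ± 0.27.

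Genes that build or work with the ribosome were taken from lists written from textbook knowledge. Of 76 tested genes of ribosome biogenesis, 10 rose and none fell, beside 4.32% of all tested genes called higher and 7.12% called lower, with a median log2 fold change of 0.19. Every CSE library lay above every PBS library in 41 of them, beside 15.1% of all tested genes, and their medians by library were 0.02, −0.002 and −0.03 in PBS and 0.19, 0.17 and 0.23 in CSE. By these medians PBS replicate 1 did not stand apart in this list, though in single genes it could. Ddx18 stood at 70.5, 86.3 and 85.4 TPM in PBS and 86.0, 90.0 and 90.0 TPM in CSE, so PBS replicate 2 overlapped. Nop2, also called, stood at 121, 120 and 123 TPM in PBS and 147, 136 and 127 TPM in CSE. The helicases Ddx18 and Ddx56 rose by log2 fold changes of 0.30 ± 0.066 and 0.34 ± 0.074 (edgeR adjusted p = 0.0132 and 0.0133), and Utp20, of the small-subunit processome, by 0.36 ± 0.082 (edgeR adjusted p = 0.0160). With an offset for effective transcript length 2 of the 76 were called, where 453 of all 13451 tested genes were called higher. On the log2(TPM + 1) scale in limma none was called, beside 224 of 12474 genes over all. Without CSE replicate 2 edgeR called none of them, beside 281 of 13693 genes over all. Without CSE replicate 3 it called 1, beside 283 of 13869.

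Of 78 genes of mitochondrial ribosomal proteins, which serve the separate ribosome of mitochondria, 6 rose and none fell, with a median of 0.23, beside the same 4.32% and 7.12% of all tested genes. Their medians by library were 0.16, −0.07 and −0.10 in PBS and 0.10, 0.21 and 0.34 in CSE, so PBS replicate 1 overlapped the CSE range here too. Mrpl19 rose by 0.38 ± 0.068 (edgeR adjusted p = 0.00393), Mrpl15 by 0.40 ± 0.082 (edgeR adjusted p = 0.00910) and Mrpl57 by 0.52 ± 0.12 (edgeR adjusted p = 0.0153). Of 37 translation factors 1 rose (background 4.32%), Pabpc1, the poly(A)-binding protein whose message also has a pyrimidine tract, by 0.33 ± 0.096 (edgeR adjusted p = 0.0492). Fitted values were positive for 35 of the 37, beside 50.9% of all tested genes, with a median of 0.15. Every CSE library lay above every PBS library in 14, beside 15.1% of all tested genes, and below in 0, beside 16.2%. The medians by library were 0.08, −0.07 and −0.05 in PBS and 0.13, 0.12 and 0.23 in CSE.

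Of 38 genes listed for translation control, 3 rose and 2 fell, with a median of −0.006. The list holds mTORC1 and its regulators, kinases of initiation factors eIF2 and eIF4E, and others such as Eef2k, Pdcd4, Myc and Maf1. Both shares are near the 4.32% called higher and 7.12% called lower over all tested genes. Eif4ebp1, the translation repressor that mTORC1 inactivates, stood at 194, 198 and 188 TPM in PBS and 267, 282 and 268 TPM in CSE. The groups were far apart, and the log2 fold change was 0.59 ± 0.088 (edgeR adjusted p = 0.00134). Sesn1 and Sesn2, stress-induced inhibitors of mTORC1, rose by 0.38 ± 0.080 and 0.25 ± 0.068 (edgeR adjusted p = 0.0109 and 0.0408). Mknk2, a kinase of eIF4E, fell by 0.38 on the log2 scale (SE 0.072, edgeR adjusted p = 0.00649), and Eif2ak3, the endoplasmic reticulum stress kinase of eIF2, fell by 0.37 (SE 0.10, edgeR adjusted p = 0.0370).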

How the data were processed

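The deposited files give estimated counts and TPM for 118489 transcripts in kallisto's format, per the file headers. TPM values had been scaled by the authors by effective length. Tools listed in the submitters' processing notes are DESeq2 1.40.2, FastQC 0.12.1, fastp 0.20.1 and kallisto 0.46.2, without their roles. Neither the kallisto index nor strandedness is given in the sources used here. Transcripts were matched to GENCODE vM21 (GRCm38), which held 116816 of them. The other 1673, with 0.638% to 0.664% of counts, were left out.

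Estimated counts were summed per gene, rounded, filtered (filterByExpr, minimum count 10) and scaled by TMM (factors 0.977 to 1.03). edgeR 4.0.16 in R 4.3.3 compared CSE with PBS by its two-sided quasi-likelihood test, treatment only, with Benjamini-Hochberg adjustment over all genes and a threshold of 0.05. CPM are TMM-scaled. The test was tested on simulated counts, with each gene drawn independently at the same dispersion. Those counts hold no shift shared by a family within a library, so they cannot speak to such shifts here. The limit given for genes without counts covers counting error only. No 2 libraries of a group were the same library: chi-square per degree of freedom was 5.61 to 17.7. Alternatives used DESeq2 1.42.0 and limma 3.58.1.

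Members and lists were chosen with earlier results of these data known. Genes named with values were those called, the 10 highest and 5 lowest fitted changes, members of listed roles, paralogs, the 2 highest and 2 lowest by TPM, and the 3 smallest p in each list. Some genes the rule names, and 1 list, are not reported here. Other members, named for their copies, for a count of 8 or fewer or for a printed start site, were chosen after their values were seen.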

Additional observations from a re-analysis of the deposited data

How the results depend on the processing

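Among the tested alternatives, the count of members called higher was 8 with DESeq2, 5 with the GC and length trend removed, 2 scaled by library size only, 2 with an offset for effective length, 69 with no filter and 0 in protein-coding transcripts only; leaving out 1 replicate gave 0 to 49, the highest without PBS replicate 1. The count called lower was 0 on log2(TPM + 0.1) and log2(TPM + 1), with the length offset and with copies added (an alternative chosen after seeing the data), and 0 to 1 leaving out 1 replicate; it was 0 without CSE replicate 2. The median of members stayed between 0.19 and 0.56 throughout. Over all genes 1539 were called, 985 at log2(TPM + 0.1), 998 at log2(TPM + 1), and 837 to 1941 leaving out 1 replicate. Called higher over all genes were 581 in the main fit and 443 of 12403 in protein-coding transcripts only, with other settings given below.

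With the replicate block 1022 of 13451 genes were called over all, 331 higher and 691 lower. Called higher were 3 of ribosome biogenesis and 0 translation factors, and called lower 1 of translation control. Rpl3l was at −0.039, and the block left 1 member called each way. Same-numbered libraries had correlations of −0.12, 0.006 and −0.06 in their deviations from group means, so the numbers were not taken as pairs.

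The main fit tested 76 biogenesis, 78 mitochondrial ribosomal protein, 37 translation factor and 38 translation control genes. Over all 13451 tested genes, 630 were called higher with DESeq2, 836 with the GC and length trend removed, and 453 with the length offset. By library size 548 were, at a mean of at least 5 CPM 533 of 10348, and with no filter 1052 of 22809. At log2(TPM + 0.1) and log2(TPM + 1) these were 220 and 224 of 12474. Leaving out 1 replicate gave 281 to 967. Biogenesis genes called higher were 18 with the GC and length trend removed, 17 with no filter and 2 with the length offset. They were 0 at both TPM settings and 0 to 19 leaving out 1 replicate. Mitochondrial ribosomal protein genes were 10 with DESeq2, 24 with no filter, 1 at both TPM settings, and 1 to 27. Translation factors were 7 with DESeq2, 4 by library size, 2 at a mean of at least 5 CPM, 10 with no filter, 2 with the offset, 0 at both TPM settings, and 0 to 12. Translation control genes were 1 higher at both TPM settings and 1 to 4 leaving out 1 replicate. They were 1 lower with the GC and length trend removed and 1 to 2 leaving out 1. Called lower over all genes were 916 with that trend removed and 554 to 981 leaving out 1.

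Signs turned at small values. Rpl37a was −0.092 with the GC and length trend removed, −0.086 at log2(TPM + 0.1) and log2(TPM + 1), and −0.18 to 0.19 leaving out 1 replicate. Rpl3l was −0.0036 by library size, −0.47 and −0.31 on TPM, −0.38 with the offset, and −0.63 to 0.31. Rpl7l1 was −0.066 and −0.064 on TPM and −0.031 to 0.059. Rpsa was −0.025 on TPM. Rpl5 was 0.22 with copies added; its call was also lost with the offset and without CSE replicate 2. The causes were not tested.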
